A study of Homo sapiens with 2 samples.

Results

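The genes described here encode 36 aminoacyl-tRNA synthetases, of which 20 belong to the cytosolic set and 16 to the mitochondrial set. They were taken by gene name from a table of 58735 genes, and all 36 were found in it. RNA sequencing compared PLC8024 cells, a human HCC line also known as PLC/PRF/5 or Alexander cells, with and without the gene MAEL. The MAEL WT library came from wildtype, non-treated cells. The MAEL KO library came from cells of the same line after knockout with an sgRNA and Cas9 plasmid, for which sorted cells had been grown into single clones. With 1 library per condition, the knockout, the clone and the state of each culture cannot be told apart, no replicate error exists and no test was made.

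Depth was alike, at 19904136 counts over all genes for MAEL WT compared with 20833332 for MAEL KO. The 36 genes took 0.684% and 0.473% of them. MAEL itself had 1 count in MAEL WT and 0 in MAEL KO, so the targeted transcript could not check the labels. All 6 hepatocyte markers and both keratins examined were detected in both libraries. The hepatocyte markers were all higher in MAEL KO, 5 of the 6 by a log2 fold change of 1 or more, with a median of 2.44, and ALB was at 59 counts in MAEL WT and 8550 in MAEL KO. Among 11 markers of leukocytes, endothelial cells and fibroblasts, CD3E was at 0 in both libraries and PTPRC, VWF, DCN and LUM had no more than 3 counts in either, while PECAM1 had 348 and 392. The other 5 had from 2 to 136 counts. Proliferation markers differed strongly, with all 10 higher in MAEL KO by 1 or more and a median log2 fold change of 2.24. Over all genes with at least 10 counts in 1 library, 10.2% were higher by 1 or more. Among genes with at least 1000 counts, 10.5% were. The part of the marker differences in the values of the synthetases was not tested. In RNA from whole cultures, fewer cells with a transcript and less of it per cell cannot be told apart.

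Aminoacyl-tRNA synthetases join each amino acid to its tRNA and so supply the ribosome with charged tRNA. Cells keep separate enzymes for the ribosomes of the cytosol and for those of mitochondria, which make the proteins encoded by mitochondrial DNA, and both sets are encoded by nuclear genes. Several cytosolic synthetases sit together in a multi-tRNA synthetase complex. When amino acids run short or proteins misfold, phosphorylation of the initiation factor eIF2 raises translation of the transcription factor ATF4, and genes of cytosolic synthetases are among its known targets.

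The cytosolic set was split between lower and higher genes, whereas most of the mitochondrial set was higher in MAEL KO. Of the 20 cytosolic genes, 12 had log2 values (MAEL KO relative to MAEL WT) below 0 and 8 above 0, with a median of -0.22. Of the 16 mitochondrial genes, 3 were below 0 and 13 above 0, with a median of 0.51. The median over all 17887 genes with at least 10 counts in 1 library was -0.04, with 8593 above 0. Over the 5516 genes with at least 1000 counts, to which all 20 cytosolic and 7 of the mitochondrial genes belong, it was 0.18, with 3410 above 0. All fold changes are on the log2 scale of TMM-normalized counts with 1 added.

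At a log2 fold change of at least 1 in size, 4 of the 20 cytosolic genes were lower and 1 was higher. No mitochondrial gene was lower by that size and 1 was higher. By the same fold, 16.5% of all genes were lower and 10.2% higher. Among genes with at least 1000 counts, 5.08% were lower and 10.5% higher, so the cytosolic share of 20% lower stood close to the first background and above the second. No synthetase reached a log2 fold change of 2, the fold part of the study's threshold, which also set a limit on the adjusted p-value. By that fold alone, 5.64% of all genes were lower and 2.16% higher. If libraries were scaled by their totals and not by TMM, the median of all genes shifted to -0.31, and 22.5% of them were lower and 6.56% higher by 1 or more. VARS, HARS and FARSA in the cytosol and AARS2, FARS2 and NARS2 in mitochondria then changed sign to below 0, SARS, YARS and PARS2 came to be lower by 1 or more, and IARS2 at 0.78 was no longer higher by 1.

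**Figure D1:**
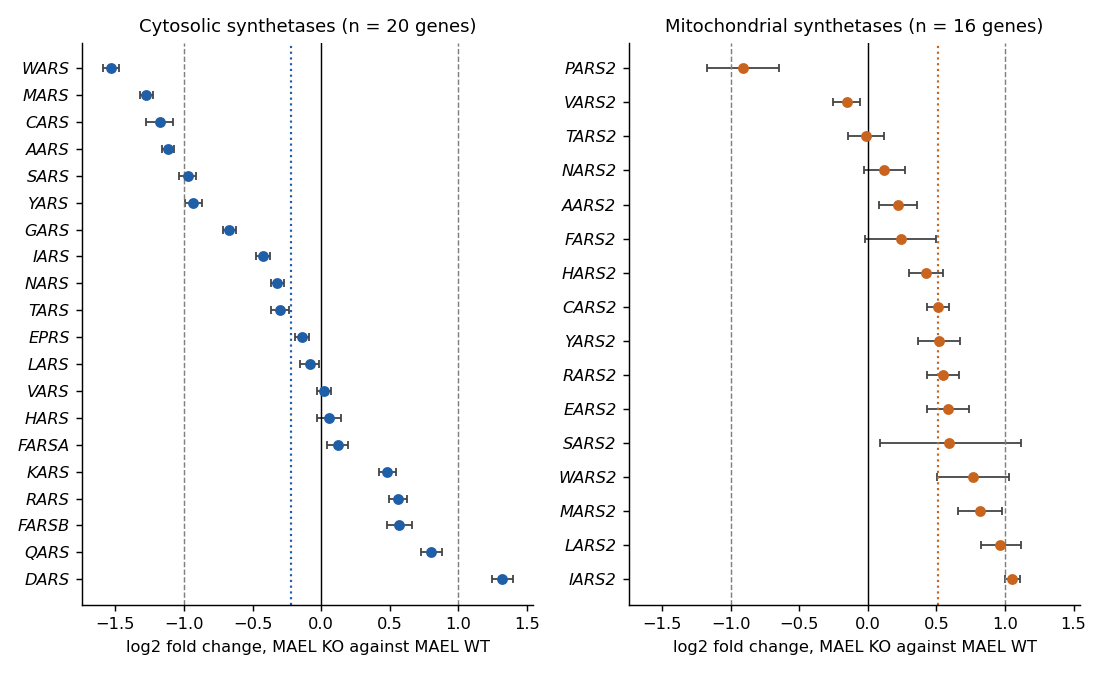
Log2 fold change (MAEL KO over MAEL WT) for 20 cytosolic (left) and 16 mitochondrial (right) synthetase genes, 1 library per condition. Points are genes, bars are exact 95% intervals that cover counting error only, dashed lines mark -1 and 1 and dotted lines the set medians of -0.22 and 0.51; cytosolic genes run from WARS at -1.53 to DARS at 1.32, and 13 of the mitochondrial genes lie right of 0.

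WARS, the tryptophanyl enzyme, which is also known as a gene induced by interferon, was the gene with the lowest log2 fold change. It lies on the minus strand of chromosome 14 of GRCh38 from 100333788 to 100376805. Its counts were 10778 in MAEL WT and 3216 in MAEL KO, a log2 fold change of -1.53 (95% Clopper-Pearson interval -1.59 to -1.48, for counting error only, as for all intervals here). Among the cytosolic genes ordered by FPKM, WARS was at place 5 in MAEL WT and 16 in MAEL KO. FPKM stands for fragments per kilobase of gene, here scaled to normalized library sizes and not to total counts.

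MARS, the methionyl enzyme, which also charges the initiator tRNA, came next. It lies on the plus strand of chromosome 12 from 57475445 to 57517569. It had 12223 and 4369 counts, a log2 fold change of -1.27 (-1.32 to -1.22). Of its 7028 annotated exonic bases, 355 also lie in exons of DDIT3 on the other strand, a gene that went from 1122 to 242 counts. CARS, the cysteinyl enzyme, lies on chromosome 11 from 3000922 to 3057613 and had 3010 and 1152 counts, a log2 fold change of -1.17 (-1.27 to -1.08). AARS, the alanyl enzyme, lies on chromosome 16 from 70252295 to 70289543 and had 13971 and 5573 counts, a log2 fold change of -1.12 (-1.16 to -1.07). Among the cytosolic genes AARS was the most abundant per length in MAEL WT, at 142 FPKM, and stood behind NARS and GARS in MAEL KO, at 65.4 FPKM.

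A further pair of cytosolic genes was close to that size. SARS, the seryl enzyme, had 6215 and 2734 counts, a log2 fold change of -0.97. YARS, the tyrosyl enzyme, had 6610 and 2993 counts and was at -0.93. The level in MAEL KO was thus 1.96-fold lower for SARS and 1.91-fold lower for YARS.

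GARS, the glycyl enzyme, whose gene also provides the mitochondrial form, had 10013 and 5438 counts and was at -0.67. IARS, the isoleucyl enzyme of the complex, had 7979 and 5129 counts and was at -0.43. NARS, the asparaginyl enzyme, had 8749 and 6063 counts and was at -0.32. These differences were smaller, but none of their counting intervals reached 0. TARS, the threonyl enzyme, had 5011 and 3519 counts, a log2 fold change of -0.30. EPRS, which carries both the glutamyl and the prolyl activity on 1 protein, had 6662 and 5230 counts and was at -0.14.

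The level of the next 3 genes hardly differed between the libraries. LARS, the leucyl enzyme, had 3926 and 3203 counts, at -0.08 (-0.15 to -0.02). VARS, the valyl enzyme, had 7001 and 6147 counts, at 0.02 (-0.03 to 0.07). HARS, the histidyl enzyme, had 2165 and 1950 counts, at 0.06 (-0.03 to 0.15). For VARS and HARS the interval took in 0, and counting error alone leaves room for little more than the values at its ends.

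The remaining cytosolic genes were higher in MAEL KO. The subunits of the phenylalanyl enzyme, FARSA and FARSB, were not equally so, since FARSA had 2763 and 2596 counts, at 0.12, and FARSB 1737 and 2231, at 0.57. KARS, the lysyl enzyme, whose gene also provides the mitochondrial form, had 3727 and 4502 counts and was at 0.48. RARS, the arginyl enzyme, had 3270 and 4172 counts and was at 0.56. The glutaminyl enzyme QARS had 2390 and 3604 counts and was at 0.80. KARS, RARS and QARS all belong to the complex, as does the gene with the largest increase, DARS, the aspartyl enzyme. DARS lies on chromosome 2 from 135906677 to 135986100 and had 2047 and 4420 counts, a log2 fold change of 1.32 (1.24 to 1.40). By FPKM it moved from place 16 to place 6 among the cytosolic genes.

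**Figure D2:**
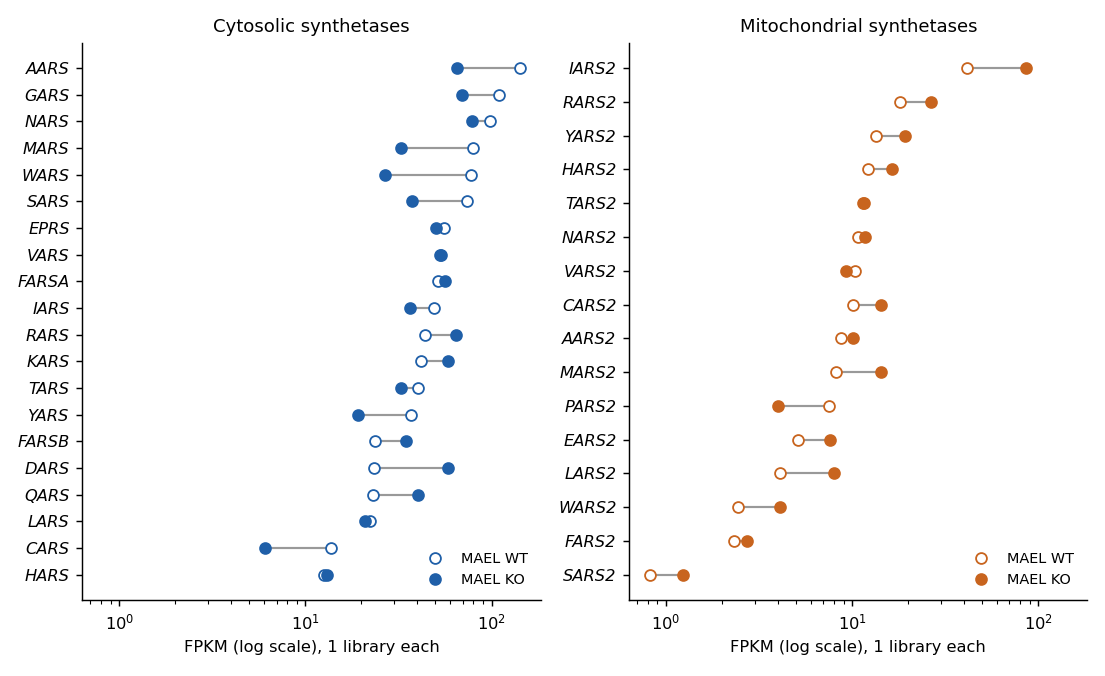
FPKM (log scale) of each synthetase gene in MAEL WT (open circles) and MAEL KO (filled circles), 1 library each, with cytosolic genes left and mitochondrial genes right, ordered by the MAEL WT level. In MAEL WT the cytosolic genes range from 12.6 to 142 FPKM and the mitochondrial genes from 0.821 to 41.6 FPKM; in MAEL KO the ranges are 6.05 to 78.2 and 1.24 to 86.1 FPKM.

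Median levels per length were higher for the cytosolic than for the mitochondrial genes in both libraries, although the ranges overlapped. The median FPKM was 46.5 in MAEL WT and 39.0 in MAEL KO over the cytosolic genes, and 9.42 and 10.8 over the mitochondrial genes. In CPM, the share of a library scaled to a fixed total, the summed level of the cytosolic set went from 6041 to 3756 CPM, and that of the mitochondrial set from 801 to 973 CPM. On the TMM scale the summed counts of the sets differed between libraries by -0.41 and 0.56 in log2. The deposited FPKM values divide by all annotated exonic bases of a gene, so genes with many alternative exons, such as CARS with 10037 bases, are listed low.

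The mitochondrial gene with the largest increase was IARS2, the isoleucyl enzyme, on chromosome 1 from 220094102 to 220148041. It had 3786 counts in MAEL WT and 6798 in MAEL KO, a log2 fold change of 1.05 (1.00 to 1.11). It was also by far the most abundant mitochondrial synthetase per length, at 41.6 and 86.1 FPKM, and in MAEL KO it stood above every cytosolic gene. LARS2, the leucyl enzyme, had 616 and 1041 counts and was at 0.97. The methionyl enzyme MARS2 had 538 and 820 counts and was at 0.82. The tryptophanyl enzyme WARS2 had 204 and 300 counts and was at 0.76. These 4 thus led the mitochondrial set, while the cytosolic enzymes of the same amino acids were all at or below -0.08.

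A middle group was higher by 0.43 to 0.59. SARS2 (58 and 76 counts, 0.59), EARS2 (641 and 830 counts, 0.58) and RARS2 (1013 and 1280 counts, 0.55) attach serine, glutamate and arginine. The seryl gene SARS2 was the least counted of all synthetases and shares 349 of its 3231 annotated exonic bases with MRPS12 and 1492 with the gene model AC011455.2, and how reads in these parts were assigned is not given in the sources used here. YARS2 (636 and 788 counts, 0.52), CARS2 (2315 and 2850 counts, 0.51) and HARS2 (998 and 1159 counts, 0.43) attach tyrosine, cysteine and histidine. HARS2 lies head to head with HARS on chromosome 5, and 437 exonic bases are annotated to both genes on opposite strands.

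Smaller differences were found for the phenylalanyl enzyme FARS2 (245 and 250 counts, 0.24) and the alanyl enzyme AARS2 (819 and 824 counts, 0.22). The asparaginyl enzyme NARS2 had 745 and 700 counts, at 0.12 (-0.03 to 0.27), and the threonyl enzyme TARS2 had 1039 and 889, at -0.01 (-0.15 to 0.12). VARS2, the valyl enzyme, had 1905 and 1481 counts and was at -0.15 (-0.25 to -0.05). It shares 1858 of its 8448 annotated exonic bases with GTF2H4 on the same strand, which had 27 and 15 counts. The prolyl enzyme PARS2 stood apart from the rest of its set with 385 and 177 counts, a log2 fold change of -0.91. Its counting interval ran from -1.18 to -0.65, below that of every other mitochondrial gene.

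Set beside each other by amino acid, the cytosolic enzyme was the lower of the pair in 13 of 16 comparisons. The difference of the log2 fold changes, cytosolic minus mitochondrial, hardly depends on how the libraries are scaled, and its median was -0.89. Counting intervals of the difference lay below 0 for 12 pairs, above 0 for 2 and took in 0 for 2. The 16 comparisons use 15 cytosolic genes, since EPRS stands beside both EARS2 and PARS2, and genes are not replicates of the condition. For phenylalanine, FARSA stands beside FARS2. The other subunit, FARSB, was left out of the pairs and at 0.57 lay above FARS2 at 0.24, so the direction of this pair depends on that choice.

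Tryptophan showed the widest gap, with WARS at -1.53 and WARS2 at 0.76, a difference of -2.30 (95% interval from the conditional odds ratio, -2.57 to -2.03). Methionine followed at -2.09 and cysteine at -1.68. For 8 amino acids, which also included serine, isoleucine, tyrosine, alanine and leucine, the difference was at least 1 in size. Per length, the cytosolic enzyme was the more abundant of the pair in all 16 comparisons in MAEL WT and in 12 in MAEL KO. The order turned over for cysteine, isoleucine, tyrosine and histidine, of which tyrosine was at a ratio of 0.995 in MAEL KO. By counts, without division by length, it turned over for cysteine and isoleucine, at ratios of 0.404 and 0.754 in MAEL KO. For tyrosine and histidine the cytosolic gene kept more counts in MAEL KO, at ratios of 3.80 and 1.68. For isoleucine the ratio of FPKM values went from 1.19 to 0.425, and for tryptophan from 32.0 to 6.49.

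The arginyl enzymes stood close together, at 0.56 and 0.55, with a difference of 0.01 (-0.12 to 0.15). For phenylalanine, with FARSA as the cytosolic gene, the difference was -0.12 (-0.39 to 0.15). The valyl pair at 0.18 and the prolyl pair at 0.77 ran the other way, with the mitochondrial enzyme the lower one.

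**Figure D3:**
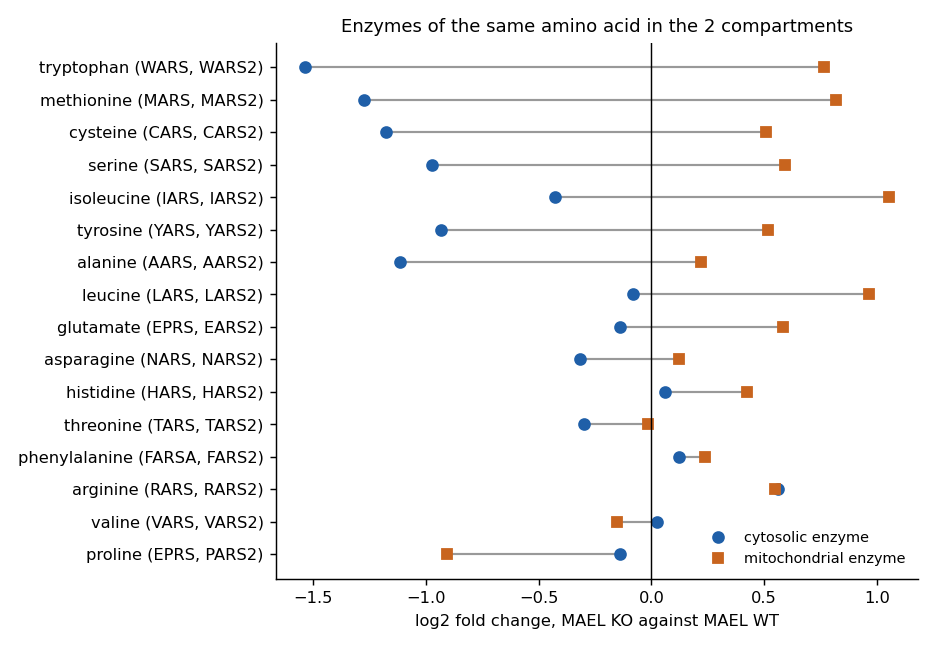
Log2 fold change of the cytosolic (circles) and mitochondrial (squares) synthetase of the same amino acid, joined by a line and ordered by their difference, 1 library per condition. From tryptophan to phenylalanine the circle lies left of the square in 13 pairs. Arginine, with a difference of 0.01, valine and proline are the exceptions. Phenylalanine is shown for FARSA, without FARSB.

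Within the cytosolic set, genes in and outside the multi-tRNA synthetase complex were compared. The 8 genes of the complex (DARS, EPRS, IARS, KARS, LARS, MARS, QARS and RARS) had a median log2 fold change of 0.20, with 4 below 0 and 4 above. The 12 genes outside it had a median of -0.49, with 8 below 0 and 4 above. Both subsets spread widely, from -1.27 to 1.32 and from -1.53 to 0.57, so members of either kind overlapped over most of the range. By catalytic fold, the 9 class I genes had a median of -0.43 and the 10 class II genes one of -0.12, with EPRS, which joins both folds, left out.

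Promoters were searched because the members that were lower include known targets of the amino acid response. The C/EBP-ATF response element, a composite site bound by ATF4 with a C/EBP partner, was sought as the letters TGATGNAA on both strands, from 250 bases before to 50 after each start in RefSeq (GRCh38.p14). Promoters were listed for 30 of the 36 genes, and DARS, LARS, VARS, YARS, AARS2 and VARS2 were not listed. A match was found for 7 of 16 cytosolic genes (AARS, CARS, GARS, IARS, MARS, NARS and TARS) and for 1 of 14 mitochondrial genes (YARS2). Of all 35116 RefSeq promoters 3.62% held a match, and of all 27305 genes 4.46% held one in any promoter.

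Windows of 30 bases are shown for WARS and MARS, with the lowest fold changes, and for the next 4 lowest genes with a match. They set the matched site beside the size of the change. They are written 5′ to 3′ along the gene, with the 8 matching letters in capitals. In MARS (chr12:57488053-57488082, plus strand) and CARS (chr11:3057407-3057436, minus) the match spans the start, with its first base 4 and 2 bases before it. For CARS this is the second listed start, and the other, at 3040984, held no match. The first base of the match lies 187 bases before the start in AARS (chr16:70289675-70289704, minus), 33 before the second listed start of GARS (chr7:30594834-30594863, plus) and 13 before the start in IARS (chr9:92293692-92293721, minus). For WARS, which held no match, the 30 bases before its upstream start are shown (chr14:100376328-100376357, minus).
MARS: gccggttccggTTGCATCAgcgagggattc
CARS: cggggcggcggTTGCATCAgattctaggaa
AARS: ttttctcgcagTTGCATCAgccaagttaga
GARS: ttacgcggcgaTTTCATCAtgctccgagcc
IARS: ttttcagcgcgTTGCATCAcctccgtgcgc
WARS: tcgggccggaagttgttccgtccggacggc
In these 5 matches the letters lie on the opposite strand of the gene, and MARS, CARS, AARS and IARS carry the same 8 bases. Of the matches not printed, that of TARS is also on the opposite strand, with its first base 2 bases after the second listed start. Those of NARS and YARS2 are on the strand of the gene, with the first base 14 after and 197 before the start.

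All 7 cytosolic genes with a match were lower in MAEL KO, from MARS at -1.27 to TARS at -0.30, with a median log2 fold change of -0.67. The 9 cytosolic genes whose promoters held no match had a median of 0.12, with 3 below 0 (WARS, SARS and EPRS) and 6 above. YARS2, the mitochondrial gene with a match, was higher at 0.52. Over all 12024 genes with a promoter and enough counts the median was 0.01 and 13.8% were lower by 1 or more. Over the 343 of them with a match, which include these 8 synthetases, the median was -0.30 and 26.5% were lower by 1 or more. A match of letters is a description of the sequence and was not tested as a binding site.

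**Figure D4:**
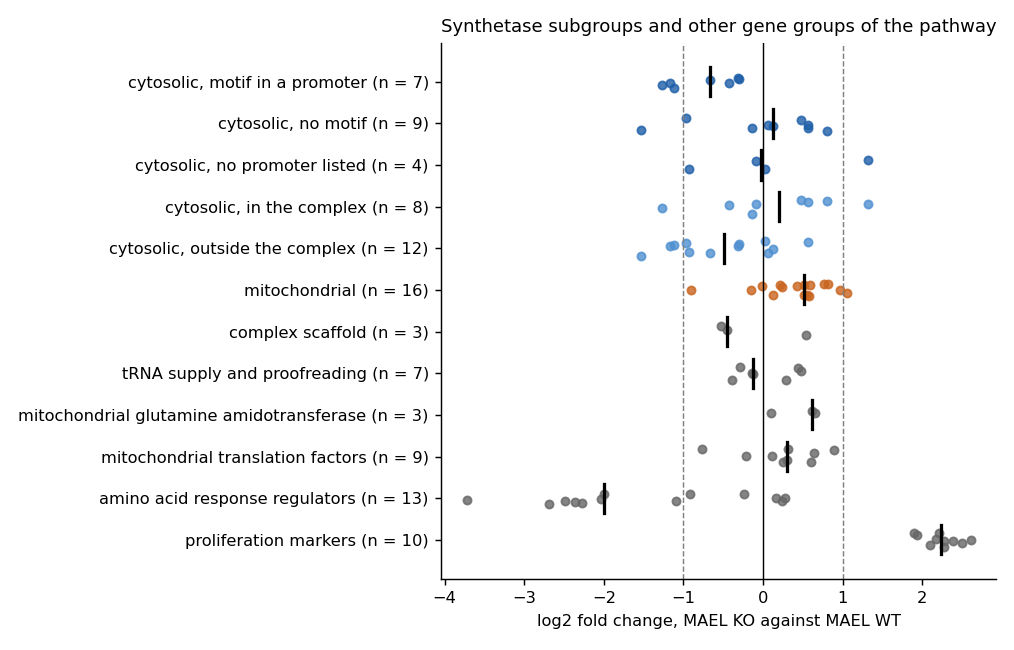
Log2 fold change (MAEL KO over MAEL WT) by gene group, 1 library per condition; points are genes, black bars medians and dashed lines mark -1 and 1. The 7 cytosolic synthetases with a promoter match all lie below 0, the mitochondrial set has a median of 0.51, and the amino acid response regulators and proliferation markers have medians of -2.0 and 2.24.

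Other genes of the pathway were summarised by list. The 3 scaffold proteins of the complex differed among themselves, with EEF1E1 at -0.53 (803 and 482 counts), AIMP1 at -0.45 (1249 and 789 counts) and AIMP2 at 0.54 (649 and 818 counts). The mitochondrial amidotransferase, which turns glutamate on its tRNA into glutamine after EARS2 has charged it, was higher for GATB at 0.66 and GATC at 0.61, and QRSL1 was at 0.10. Of 7 counted genes of tRNA supply and proofreading, 4 were below 0 and 3 above, with a median of -0.13. They ran from XPOT, the export receptor of tRNA, at -0.39 to PTRH2, a peptidyl-tRNA hydrolase, at 0.48.

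Of 9 mitochondrial translation factors, 7 were above 0 and 2 below, with a median of 0.30, and none reached 1 in size. These counts stand beside 8593 of 17887 genes above 0 overall and 3410 of 5516 among genes with at least 1000 counts. TSFM, an elongation factor, was the highest at 0.89, and the release factor MTRF1 was the lowest at -0.77.

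Most genes listed as regulators and markers of the amino acid response were lower in MAEL KO. Protein misfolding also acts through eIF2 and ATF4, and the list does not separate it from a shortage of amino acids. Of 13 genes, 10 were below 0 and 8 were lower by 1 or more, with a median of -2.0. Over all genes, 9294 of 17887 were below 0 and 16.5% were lower by 1 or more. Among genes with at least 1000 counts, 5.08% were lower by that size. CHAC1, which degrades glutathione, had 2016 and 131 counts, at -3.72. SESN2, a leucine sensor, had 3476 and 464, at -2.69, and the transcription factor ATF3 had 1170 and 180, at -2.48. The mRNA of ATF4 itself was at -0.24, with 12198 and 8922 counts. The kinase EIF2AK4, which senses uncharged tRNA, and its partner GCN1 were at 0.24 and 0.28, whereas EIF2AK3, the kinase of the unfolded protein response, was at -0.91. Their part in the values of the synthetases was not tested.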

How the data were processed

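RNA of 1 MAEL WT and 1 MAEL KO culture was sequenced, on a HiSeq instrument. The submitters' processing notes name HISAT2 2.0.5, featureCounts 1.5.0-p3 and hg19, but the deposited gene coordinates are those of GRCh38, and all 36 members match GENCODE 29. The authors deposited raw counts per gene and FPKM values, both used here. Whether counting used strand is not given in the sources used here, and exons of 20 members overlap another gene.

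Library factors were computed from the counts with TMM in edgeR 4.0.16, and with DESeq2 1.42.0 as an alternative, in R 4.3.3. Fold changes of genes with at least 10 counts in 1 library, with 1 added to normalized counts, came from SciPy 1.17.1, pandas 2.3.3 and NumPy 2.4.6 under Python 3.11.15. Each interval is a Clopper-Pearson interval (for pairs, a conditional odds ratio interval) on how the counts of a gene divide between the libraries. With 1 library per condition, it covers counting error and nothing else. PCR copies were not marked by molecular identifiers, so reads may not be independent and the interval may be too narrow. The fold change step was tested on data simulated with counting error alone, which cannot speak to differences between clones or cultures.

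Members and lists were chosen with earlier results of these data known. All members are named, with intervals for those at or past 1 in size, the 3 nearest to 0 in each set and PARS2, which was added after its value was seen. Of each list, up to 3 genes at each end are named, and others, among them ATF4, EIF2AK3, ALB and PECAM1, were added after their values were seen. The background of genes with at least 1000 counts was also added then.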

Additional observations from a re-analysis of the deposited data

How the results depend on the processing

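Leaving out a library was not possible with 1 per condition. No paired analysis was possible because each condition has 1 library. The medians of both sets and of the pair differences kept their sign with total counts, size factors from DESeq2, ratios of FPKM, added counts of 0.1 and 5, no filter, a filter of at least 100 counts and protein-coding genes alone. The cytosolic median ranged from -0.50 with total counts to -0.22, the mitochondrial median from 0.24 with total counts to 0.51, and the pair difference from -0.89 to -0.72, the last with at least 100 counts, where SARS2 drops out. Ratios of FPKM nearly repeated the DESeq2 setting, with set medians of -0.223 and 0.510 under both, and are no separate check of scaling. Log ratios of the summed counts were -0.41 and 0.56 for the sets. Without GARS and KARS the cytosolic median was -0.22. At a threshold of 2 the number of cytosolic genes lower was 0 in place of 4. With total counts 6 cytosolic genes and 1 mitochondrial gene, PARS2, were lower by 1 or more. Among 287 single-gene values recomputed in these ways, 35 left the counting interval, all of them with total counts, which shift every gene alike.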

Other observations

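Cytosolic elongation factors, which deliver charged tRNA to the ribosome and move it along, were also counted. Of 6 genes with at least 10 counts in 1 library, 5 were above 0, and the median of their log2 fold changes was 0.49. By the same filter 8593 of all 17887 genes were above 0, as were 3410 of the 5516 genes with at least 1000 counts. EEF1A1, the abundant form of the factor that carries charged tRNA, had 154640 and 173982 counts, a log2 fold change of 0.38, and EEF1B2, a subunit of its exchange factor, had 3469 and 6668 counts, at 1.15. EEF1A2, the form known from muscle and neurons, went the other way, with 297 and 7 counts, at -5.02 in log2 (95% Clopper-Pearson interval -6.52 to -4.14, counting error only). EEF1G was listed at 0 counts in both libraries. This was not read as absence of its transcript, since how reads were assigned is not given in the sources used here. Selenocysteine is made on a tRNA first charged by SARS. The 4 genes listed for its pathway ran from SECISBP2 at -0.22 to EEFSEC at 0.39, with a median of 0.19, and none reached 1 in size.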
